A study of Mus musculus with 16 samples.

Results

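The immediate early and AP-1 genes Fos, Fosb, Jun, Junb, Atf3, Egr1, Nr4a1, Ier2, Dusp1 and Zfp36 were followed in RNA from ileum mucosa of Slfn3KO and WT mice. They were picked by gene symbol, as 10 of the 46078 genes in the count table, and each of the 10 passed the filter on low counts. The study asked what loss of Slfn3, a member of the Schlafen family, does to the small intestine of male and female mice. RNA was sequenced from 16 mice, with 4 libraries in each of 4 groups, which were female WT, female Slfn3KO, male WT and male Slfn3KO. All groups were of the C57Bl/6 background, the labels name the tissue as intestinal mucosa, and the knockout is a whole-body deletion, so that no single cell type carries it. The labels give an age of 8 weeks, while the study's methods name older mice, so their age is uncertain. No treatment is named in the labels. Each library held between 20823279 and 30813117 counted reads. Levels are given as CPM, read counts relative to library size after scaling by TMM factors. At these depths 3 counts, taken as the floor of detection for counting error only, equal 0.100 to 0.151 CPM depending on the library. Values in each group are listed in the order of the replicate numbers 1 to 4 in the labels.

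Immediate early genes are transcribed within minutes of a stimulus by factors already present in the cell, such as serum response factor with its partners and CREB, without need for new protein synthesis. Their transcripts are short-lived, and several of their products, such as Dusp1 and Zfp36, shut the response off again. Proteins of the Fos and Jun families pair through leucine zippers to form AP-1, and in the intestine these genes are known as early responders to growth factors, injury and feeding.

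Slfn3, the targeted gene, was at 0.0502, 0.169, 0.290 and 0.570 CPM in female WT mice and at 0.0334, 0.0701, 0.646 and 0 CPM in male WT mice. In Slfn3KO mice it was at 0, 0, 0 and 0.0802 CPM in females and at 0.0361, 0, 0 and 0 CPM in males. It was thus at or below the floor in each Slfn3KO library, but also in 4 of the 8 WT libraries, and it was too low to be tested. It therefore says little about the genotype label of a single library. The sex transcripts went against the labels in 4 WT libraries. Xist, the RNA that silences one X chromosome in female cells, was at 312, 409, 0.124 and 0 CPM in the libraries labelled female WT and at 0.234, 0.316, 437 and 401 CPM in those labelled male WT. The Y-linked gene Ddx3y was at 0.0502, 0.0847, 42.0 and 49.7 CPM and at 35.5, 45.2, 0 and 0.0416 CPM in the same libraries. In the Slfn3KO libraries both transcripts followed the sex label, with Xist between 519 and 629 CPM in females and Ddx3y between 40.5 and 50.4 CPM in males. The WT libraries 3 and 4 of each labelled sex also carry the last 4 consecutive library numbers in the labels, with no Slfn3KO library among them, so that genotypes cannot be compared within that run of numbers. Sex below is always the labelled sex, and the fits of the members are given with and without these 4 libraries.

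The tissue label was checked against markers. The 10 enterocyte markers, most abundant of which was Fabp2, were all detected and summed to 63490, 55320, 28000 and 37930 CPM in female WT and 21810, 21120, 36250 and 34540 CPM in female Slfn3KO mice. In males the sums were 42040, 44660, 33300 and 60320 CPM in WT and 45000, 50410, 36450 and 55940 CPM in Slfn3KO mice. The lowest sums were those of female Slfn3KO 1 and 2, and the highest was that of female WT 1. Of 5 pancreas markers, 1 was at 0 in every library, and their sum stayed between 4.91 and 9.04 CPM, most of it from Cela1. Because these are bulk samples, fewer cells of a type and less RNA per cell cannot be told apart.

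Levels of the 10 genes were compared per length, as CPM divided by the summed exon length in kilobases (FPKM), over the 16 libraries. The highest level was that of Zfp36, with a mean of 154 ± 35.2 FPKM (SD, n = 16). Fos followed at 104 ± 59.6 FPKM and Junb at 83.0 ± 23.7 FPKM. The means ± SD of Zfp36 and Fos overlapped, as did those of Fos and Junb, but not those of Zfp36 and Junb. Jun at 38.1 ± 14.4, Ier2 at 31.2 ± 2.78 and Atf3 at 29.3 ± 12.7 FPKM formed a middle tier, with overlapping means ± SD. Egr1 at 5.28 ± 2.05 and Dusp1 at 3.73 ± 1.14 FPKM were lower. Fosb at 1.73 ± 1.37 and Nr4a1 at 1.07 ± 1.12 FPKM were lowest, and from Egr1 down the means ± SD of neighbours overlapped. Between neighbours, those of Junb and Jun and those of Atf3 and Egr1 did not overlap. Fosb had 10 counts in its lowest library and Nr4a1 21, so their low values are the least precise.

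The genes also differed in how much they varied between mice. Fosb spanned 39.3-fold in CPM from the lowest to the highest library, Nr4a1 16.1-fold and Fos 15.7-fold. Single libraries set these spans and their order. Fosb and Fos were at 0.409 and 36.9 CPM in female Slfn3KO 2, and next lowest in female WT 4, at 1.14 and 82.8 CPM. Nr4a1 was at 12.2 CPM in male WT 3 and next highest in female WT 4, at 4.60 CPM. Atf3 spanned 8.50-fold, Jun 6.07-fold, Egr1 3.97-fold and Junb 3.70-fold. Dusp1 and Zfp36 spanned 2.61-fold and 2.57-fold, while Ier2 spanned only 1.33-fold. The biological coefficient of variation that edgeR estimated was 0.760 for Fosb, 0.625 for Nr4a1 and 0.535 for Fos, against 0.119 for Ier2 and a median of 0.230 over all 14822 genes tested. Within groups, 97.0% of the genes tested had an SD of log2 CPM at or below that of Fosb, and 3.39% had one at or below that of Ier2.

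**Figure D1:**
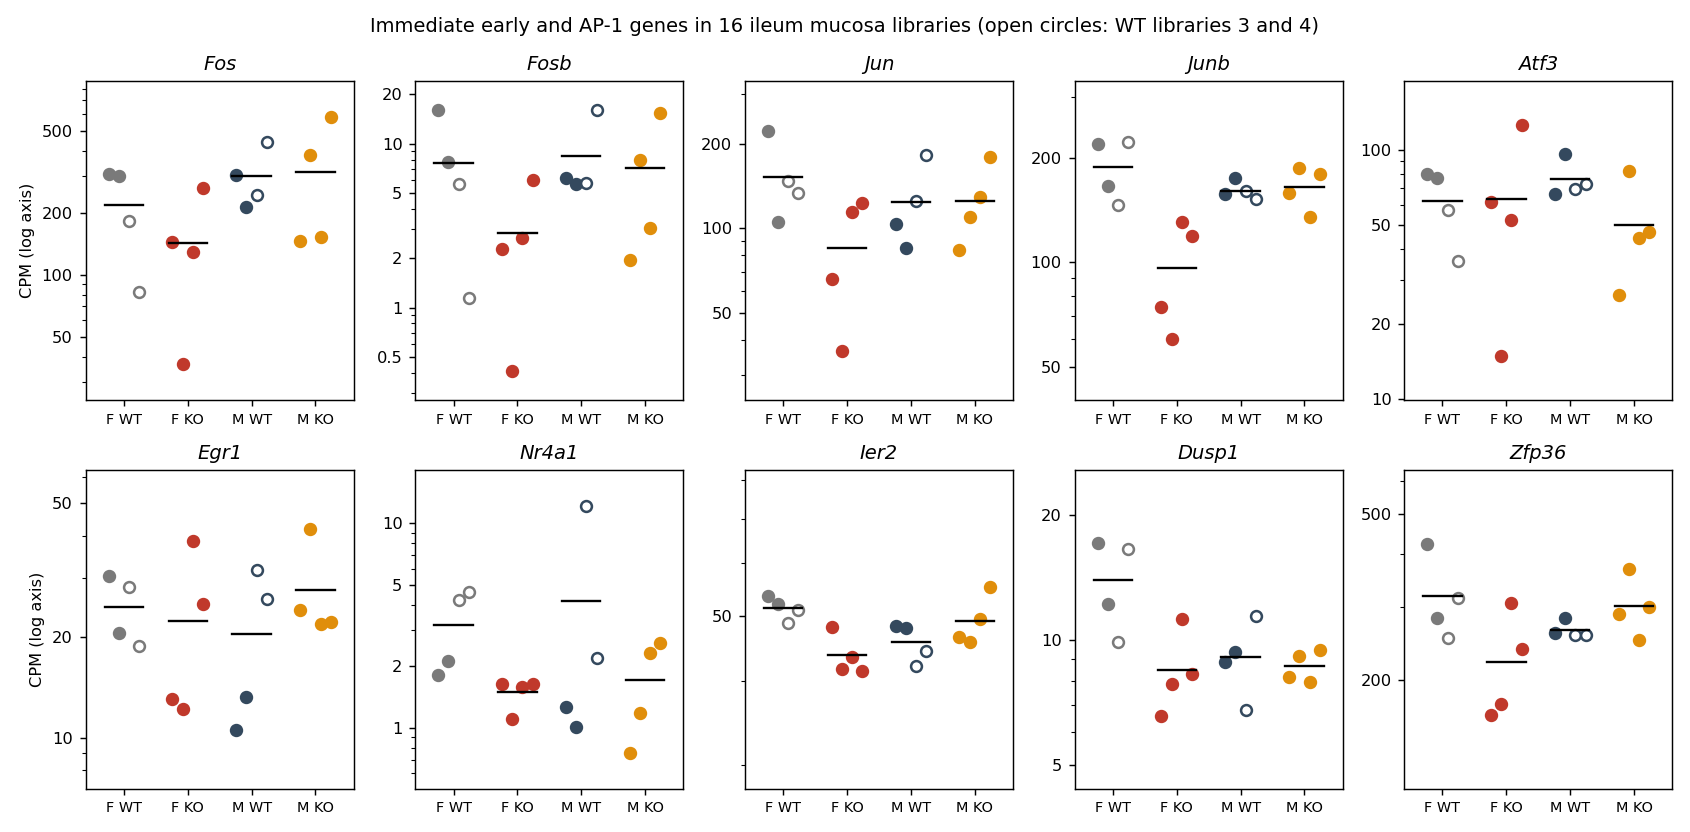
CPM on a log axis for each of the 10 genes in the 16 libraries, by group (F female, M male, KO Slfn3KO), with 1 circle per mouse, the group mean as a bar, and open circles for the WT libraries 3 and 4. Fosb runs from 0.409 to 16.1 CPM, whereas Ier2 stays between 41.4 and 55.2 CPM.

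Promoter windows, 250 bases before to 50 bases after the annotated start, were at hand from RefSeq (GRCm38.p6) for 8 of the 10 genes, with Egr1 and Ier2 not matched. They are shown for genes that moved together between mice (Fos with Fosb, Junb with Zfp36) and for Dusp1 and Nr4a1, and motifs were chosen after the sequences had been seen. Each is written 5′ to 3′ on the gene's strand. Capitals mark TGACG, the core of the CREB and ATF element, on either strand (CGTCA when on the other), and the CArG box bound by serum response factor. TGACG was present in 6 of the 8 windows, those of Fos, Fosb, Junb, Atf3, Dusp1 and Nr4a1, and in 20.8% of 32851 mouse promoter windows of 300 bases. The Atf3 window, chr1:191183284-191183583 on the minus strand, is that of a start inside the counted gene, whose 5′ end lies at 191218039. The palindrome TGACGTCA, which contains TGACG on both strands, was found in Dusp1 and in 1.79% of all windows. The CArG box was found in Zfp36 and in 1.63% of all windows, and TATAAA in Fos and Junb and in 13.6%. TGAGTCA, the letters of the AP-1 site, occurred in 0 of the 8 and in 5.20% of all windows, and GCGTGGGCG, the letters bound by Egr1, in 0 of the 8 and in 0.612%. A match in a window is a description of its letters only.

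Fos and Fosb, both AP-1 subunits that pair with Jun proteins, were the members most alike in pattern. The Fos window, chr12:85473640-85473939 on the plus strand, holds TGACG at 129 and 66 bases before the start. The Fosb window, chr7:19309996-19310295 on the minus strand, holds it at 60 bases before the start.
Fos: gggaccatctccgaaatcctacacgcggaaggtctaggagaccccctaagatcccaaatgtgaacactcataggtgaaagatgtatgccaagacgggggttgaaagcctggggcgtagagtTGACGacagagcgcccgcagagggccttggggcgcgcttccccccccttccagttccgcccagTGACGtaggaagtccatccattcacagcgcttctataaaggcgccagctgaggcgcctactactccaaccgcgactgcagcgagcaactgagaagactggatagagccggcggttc
Fosb: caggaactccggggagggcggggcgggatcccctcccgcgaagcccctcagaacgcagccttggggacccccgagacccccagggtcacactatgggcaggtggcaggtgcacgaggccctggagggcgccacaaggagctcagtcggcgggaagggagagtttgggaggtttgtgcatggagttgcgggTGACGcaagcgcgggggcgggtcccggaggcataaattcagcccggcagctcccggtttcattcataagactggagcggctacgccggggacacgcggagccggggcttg

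Fos was at 306, 302, 183 and 82.8 CPM in female WT and at 143, 36.9, 129 and 263 CPM in female Slfn3KO mice. Among males it was at 304, 214, 244 and 438 CPM in WT and at 145, 379.5, 153 and 579.9 CPM in Slfn3KO mice. The libraries of male Slfn3KO 4 and male WT 4 were highest and that of female Slfn3KO 2 lowest, and the genotypes overlapped in both sexes. Fosb was at 16.1, 7.75, 5.64 and 1.14 CPM in female WT and at 2.28, 0.409, 2.64 and 6.02 CPM in female Slfn3KO mice. In males it was at 6.18, 5.65, 5.78 and 16.0 CPM in WT and at 1.95, 7.90, 3.07 and 15.4 CPM in Slfn3KO mice. Female WT 1, male WT 4 and male Slfn3KO 4 stood near 16 CPM for Fosb, with female Slfn3KO 2 again lowest and both genotypes overlapping.

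Jun and Junb are the partners of the Fos proteins in AP-1, and Jun proteins can also pair among themselves. Jun was at 223, 105, 147 and 133 CPM in female WT and at 66.1, 36.7, 115 and 123 CPM in female Slfn3KO mice. In males Jun was at 103, 84.8, 125 and 182 CPM in WT and at 84.0, 110.0, 129 and 179 CPM in Slfn3KO mice. The gene lies at chr4:95049034-95052222 on the minus strand in the annotation of the count table. The highest Jun value was that of female WT 1 and the lowest that of female Slfn3KO 2, with overlap between the genotypes in each sex. An exon of Jun overlaps Junos on the opposite strand, and reads were counted by strand. Junb was at 219, 167, 146 and 222 CPM in female WT and at 74.5, 60.0, 131 and 119 CPM in female Slfn3KO mice, so that all 4 female Slfn3KO libraries lay below all 4 female WT libraries. Male Junb values were 158, 175, 160.2 and 152 CPM in WT and 159, 187, 135 and 179.9 CPM in Slfn3KO mice, and these overlapped. The Junb window, chr8:84978699-84978998 on the minus strand, holds TGACG at 106 bases before the start.
Junb: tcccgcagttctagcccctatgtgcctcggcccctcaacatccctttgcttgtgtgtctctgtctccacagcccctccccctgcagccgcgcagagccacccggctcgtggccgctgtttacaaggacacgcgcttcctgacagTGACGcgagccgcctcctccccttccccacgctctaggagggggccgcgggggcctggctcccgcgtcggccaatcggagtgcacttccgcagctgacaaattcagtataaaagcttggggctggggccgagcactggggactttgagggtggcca

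Atf3 (chr1:191170296-191218039 on the minus strand in the annotation of the count table), a CREB-family factor that also pairs with Jun proteins and is known for its induction by stress, was at 80.1, 76.8, 57.4 and 35.8 CPM in female WT and at 61.6, 14.8, 52.2 and 126 CPM in female Slfn3KO mice. Its male values were 66.5, 96.4, 69.6 and 72.6 CPM in WT and 26.1, 81.9, 44.2 and 46.9 CPM in Slfn3KO mice. For Atf3 the highest and the lowest of all 16 libraries were both female Slfn3KO mice, numbers 4 and 2.

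Egr1, a zinc finger factor, was at 30.5, 20.6, 28.1 and 18.8 CPM in female WT and at 13.1, 12.2, 38.7 and 25.0 CPM in female Slfn3KO mice. In males it was at 10.6, 13.3, 31.7 and 26.0 CPM in WT and at 24.1, 42.0, 21.8 and 22.2 CPM in Slfn3KO mice. The low Egr1 values of male WT 1 and 2 lay below every male Slfn3KO value, while male WT 3 and 4 lay among them. Nr4a1, an orphan nuclear receptor induced in lymphocytes by antigen receptor signalling, was at 1.81, 2.12, 4.23 and 4.60 CPM in female WT and at 1.63, 1.10, 1.59 and 1.65 CPM in female Slfn3KO mice. Its male values were 1.27, 1.02, 12.2 and 2.20 CPM in WT and 0.757, 1.19, 2.33 and 2.61 CPM in Slfn3KO mice. The 3 highest Nr4a1 values were those of male WT 3 and female WT 3 and 4, all among the libraries whose sex transcripts went against the label, and without these the female genotypes still did not overlap. The Nr4a1 window, chr15:101266596-101266895 on the plus strand, holds TGACG on the other strand (CGTCA) at 4 positions, 233, 213, 69 and 40 bases before the start.
Nr4a1: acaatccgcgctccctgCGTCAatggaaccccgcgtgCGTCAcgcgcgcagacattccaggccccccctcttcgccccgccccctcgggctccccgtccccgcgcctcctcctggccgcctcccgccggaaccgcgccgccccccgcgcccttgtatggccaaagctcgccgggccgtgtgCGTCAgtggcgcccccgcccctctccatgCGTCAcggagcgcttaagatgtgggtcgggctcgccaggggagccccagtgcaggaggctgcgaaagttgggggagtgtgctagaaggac

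Ier2 (chr8:84661331-84662852 on the minus strand), a nuclear protein of the immediate early response, was the steadiest member. It was at 53.7, 52.2, 48.9 and 51.0 CPM in female WT and at 48.1, 41.8, 43.5 and 41.4 CPM in female Slfn3KO mice, which did not overlap. Male Ier2 values were 48.3, 48.0, 42.2 and 44.4 CPM in WT and 46.5, 45.7, 49.5 and 55.2 CPM in Slfn3KO mice, which did. Dusp1, a phosphatase that switches off MAP kinases, was at 17.2, 12.2, 9.90 and 16.6 CPM in female WT and at 6.58, 7.85, 11.2 and 8.31 CPM in female Slfn3KO mice. Its male values were 8.88, 9.40, 6.80 and 11.5 CPM in WT and 8.15, 9.17, 7.95 and 9.45 CPM in Slfn3KO mice. Among females, Dusp1 overlapped only through female WT 3 and female Slfn3KO 3. Zfp36, which binds AU-rich elements and promotes decay of mRNAs, was at 424, 282, 253 and 314 CPM in female WT and at 165, 176, 306 and 238 CPM in female Slfn3KO mice. In males Zfp36 was at 259, 282, 257 and 257 CPM in WT and at 288, 368, 249.6 and 300.1 CPM in Slfn3KO mice. The lowest Zfp36 values of all were those of female Slfn3KO 1 and 2. The Dusp1 window lies at chr17:26508423-26508722 on the minus strand and that of Zfp36 at chr7:28379179-28379478 on the minus strand. TGACGTCA starts 143 bases before the start of Dusp1 and the CArG box 58 bases before that of Zfp36.
Dusp1: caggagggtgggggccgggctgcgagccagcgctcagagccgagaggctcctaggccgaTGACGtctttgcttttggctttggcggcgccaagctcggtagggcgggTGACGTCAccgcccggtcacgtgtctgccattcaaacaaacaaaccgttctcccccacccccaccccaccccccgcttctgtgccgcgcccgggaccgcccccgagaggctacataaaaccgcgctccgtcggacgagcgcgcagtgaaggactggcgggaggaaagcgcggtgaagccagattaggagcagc
Zfp36: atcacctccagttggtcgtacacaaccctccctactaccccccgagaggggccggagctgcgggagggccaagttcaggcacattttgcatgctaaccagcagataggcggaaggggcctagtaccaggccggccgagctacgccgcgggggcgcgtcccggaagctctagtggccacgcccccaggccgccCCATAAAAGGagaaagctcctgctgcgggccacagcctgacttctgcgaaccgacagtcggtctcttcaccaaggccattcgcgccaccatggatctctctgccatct

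The first comparison asked how Slfn3KO mice of both sexes differ from WT, with sex as a covariate. Nr4a1, Dusp1 and Junb were lower in Slfn3KO mice at an unadjusted p below 0.05, and none of the 10 members passed the threshold of an adjusted p below 0.05 with a change of at least 1.5-fold. Both Dusp1 and Junb lost that p when female Slfn3KO 1, female Slfn3KO 2, female WT 1 or female WT 4 alone was left out. The edgeR unadjusted p was then 0.0586 to 0.0615 for Dusp1 and 0.0651 to 0.079 for Junb. Their log2 fold changes in these fits ran from -0.35 to -0.32 and from -0.39 to -0.34. Dusp1 also lost it without female Slfn3KO 4 (edgeR unadjusted p = 0.0562), and Junb without male Slfn3KO 3 (edgeR unadjusted p = 0.0502). Across all genes, the robust quasi-likelihood test of edgeR with Benjamini-Hochberg adjustment passed 0 of 14822 (0%), with 1770 at an unadjusted p below 0.05, and DESeq2 passed 55, of which 0 were members. The 3 members stand beside a background of 7.10% of all genes lower at an unadjusted p below 0.05. The median log2 fold change was -0.35 over the members and -0.0037 over all genes tested, and without female Slfn3KO 2 the members' median was -0.21. For Nr4a1, the lowest, median and highest values were 1.02, 2.16 and 12.2 CPM in the 8 WT and 0.757, 1.61 and 2.61 CPM in the 8 Slfn3KO mice. Its log2 fold change was -1.19 (SE 0.466, edgeR adjusted p = 0.336, unadjusted p = 0.0219). This value rested on the WT libraries 3 and 4, as it was 0.07 without these 4 libraries and -0.51 without male WT 3 alone. Dusp1 had 6.80, 10.7 and 17.2 CPM in WT and 6.58, 8.23 and 11.2 CPM in Slfn3KO mice, with a log2 fold change of -0.40 (SE 0.164, edgeR adjusted p = 0.36, unadjusted p = 0.0286). With the replicate number as a block Dusp1 was at -0.38 (edgeR unadjusted p = 0.0759).

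Junb had 146, 163 and 222 CPM in WT and 60.0, 133 and 187 CPM in Slfn3KO mice, a log2 fold change of -0.47 (SE 0.198, edgeR adjusted p = 0.372, unadjusted p = 0.0319). With the replicate number as a block Junb was at -0.49 (edgeR unadjusted p = 0.0551). The other members had pooled log2 fold changes from -0.83 for Fosb to 0.15 for Egr1, with edgeR adjusted p from 0.574 to 0.838, and 9 of the 10 members were on the lower side. Fosb was at -0.48 without female WT 1, and Jun, -0.41 with all libraries, at -0.25 without female Slfn3KO 2 and -0.26 without female WT 1. Ier2 was at -0.06, and at 0.02 on total counts without scaling factors, which moved the median of all genes to 0.076. Relative to that median it was -0.06 with and -0.06 without the factors. Without the 4 WT libraries, which leaves 4 WT against 8 Slfn3KO mice, 1 member, Dusp1, was lower at an unadjusted p below 0.05, where 3.10% of all genes were, with a log2 fold change of -0.45 (edgeR adjusted p = 0.761). Junb was then at -0.53 (SE 0.245, edgeR unadjusted p = 0.0507). The members' median was then -0.38, against 0.015 over all genes.

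**Figure D2:**
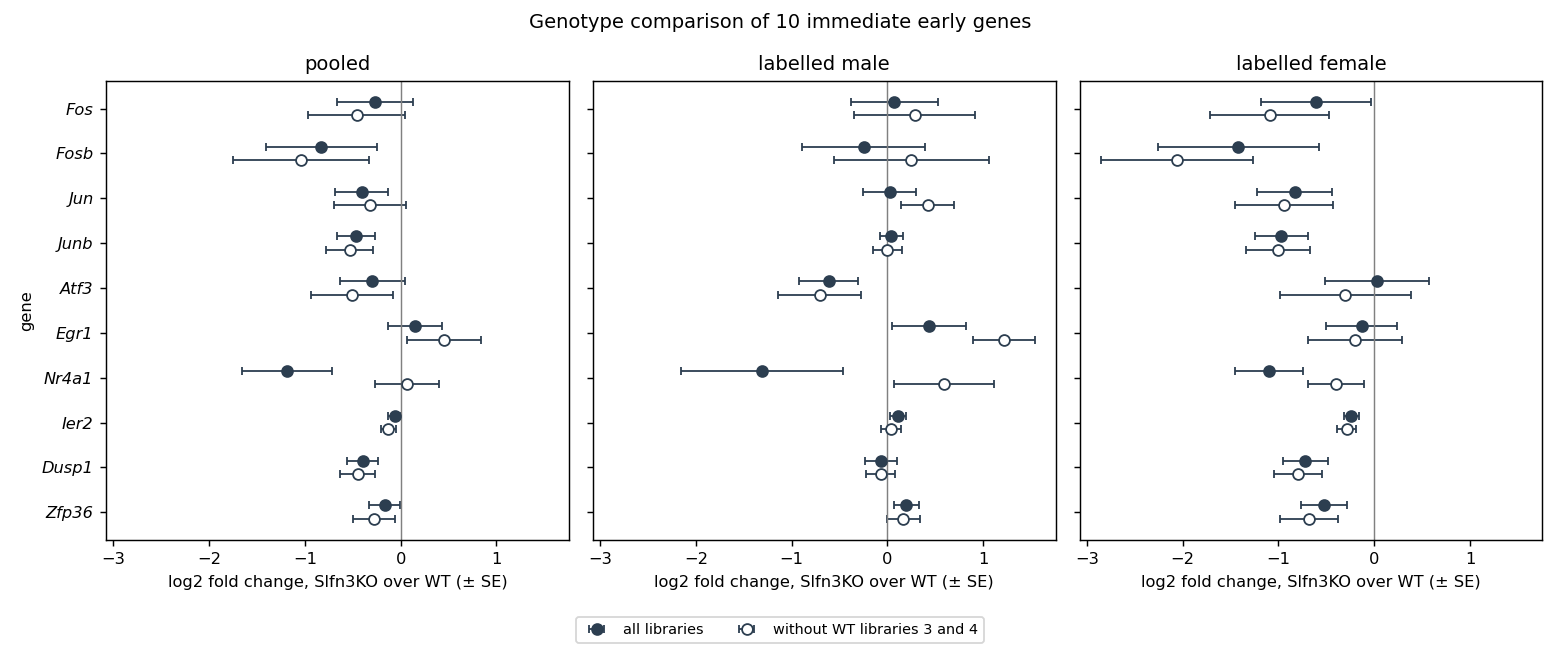
Log2 fold change of Slfn3KO over WT with its standard error for each gene, pooled over the sexes and in mice labelled male and female, with all libraries (filled) and without the WT libraries 3 and 4 (open). Junb in females lies at -0.97 and -1.01, whereas Nr4a1 in males moves from -1.31 to 0.59.

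In males the question was the same with 4 mice in each group. None of the 10 members was at an unadjusted p below 0.05, where 3.84% of the 14124 genes tested were (542 genes). The edgeR test passed 0 genes (0%) and DESeq2 passed 14, with 0 members among either. The members' median log2 fold change was 0.03, against -0.0016 over all genes. Single libraries moved it, to -0.14 without male Slfn3KO 4 and to 0.13 without male WT 4. The lowest unadjusted p of a member was that of Atf3, a stress-induced factor, with a log2 fold change of -0.61 (SE 0.309, edgeR adjusted p = 0.925, unadjusted p = 0.0807). It was -0.97 without male Slfn3KO 2 (edgeR unadjusted p = 0.003, adjusted p = 0.99). Without male Slfn3KO 1 it was -0.40 (edgeR unadjusted p = 0.144), and without male WT 2 it was -0.47 (edgeR unadjusted p = 0.189). With the replicate number as a block it was -0.71 (edgeR unadjusted p = 0.00673, adjusted p = 0.743), and 936 of the 14124 genes were at an unadjusted p below 0.05 in that fit. Fosb was at -0.51 with the block and -0.25 without it. In the fit without the block Nr4a1 had the largest male difference, -1.31 (SE 0.847), but it was -0.68 with the block, 0.22 without male WT 3 and 0.59 without male WT 3 and 4. Without the latter pair of libraries, with 2 WT and 4 Slfn3KO males left, 1 member reached an unadjusted p below 0.05, where 7.14% of all genes did. It was Egr1, higher in Slfn3KO males by a log2 fold change of 1.22 (SE 0.320, edgeR adjusted p = 0.644, unadjusted p = 0.00716), against 0.43 with all libraries. The members' median was 0.21 in that fit. With 1 library left out, Egr1 was at 0.15 without male Slfn3KO 2, 0.22 without male WT 1 and 0.76 without male WT 3.

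In females, Junb, Nr4a1, Dusp1 and Ier2 were lower in Slfn3KO mice at an unadjusted p below 0.05, as were 8.56% of the 14064 genes tested. For 3 of these members, Junb, Nr4a1 and Ier2, the 4 Slfn3KO values lay below the 4 WT values, as they did for 3.03% of all genes. No member passed the threshold in edgeR, which passed 0 genes (0%) with 2410 at an unadjusted p below 0.05, while DESeq2 passed 506 genes, among them 1 member. That member was Junb, at 189 ± 38.0 CPM in WT and 96.2 ± 34.3 CPM in Slfn3KO females (SD, n = 4). Its log2 fold change was -0.97 (SE 0.275) with an edgeR adjusted p of 0.236 and an unadjusted p of 0.00683. By DESeq2 it was -0.99 with an adjusted p of 0.0268, whereas the other alternatives gave adjusted p from 0.131 to 0.554. Nr4a1 had a log2 fold change of -1.10 (SE 0.353, edgeR adjusted p = 0.239), which was -0.40 without female WT 3 and 4. With all 4 groups in one fit Nr4a1 was at -1.09 (SE 0.682, edgeR unadjusted p = 0.131). Jun and Zfp36 then reached an edgeR unadjusted p below 0.05 (0.0366 and 0.0179), at -0.835 and -0.52. In that fit 5 members were lower at that p, beside 1405 of the 14822 genes tested. For Dusp1 the log2 fold change was -0.72 (SE 0.235, edgeR adjusted p = 0.243). The small but even difference of Ier2 was -0.24 (SE 0.0797, edgeR adjusted p = 0.246). On total counts without scaling factors Ier2 was at -0.09, with the median of all genes at 0.136, and relative to that median at -0.23. In that fit Ier2 no longer had an unadjusted p below 0.05 (edgeR unadjusted p = 0.451).

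Of the other female values, Fosb had -1.42 (SE 0.843), Jun -0.83 (SE 0.388) and Fos -0.61 (SE 0.577) on the log2 scale, with edgeR adjusted p from 0.3 to 0.547. Single libraries moved these values. Fosb was at -0.76 without female WT 1 and at -2.11 without female Slfn3KO 4. Fos was at -0.29 without female Slfn3KO 2, at -0.40 without female WT 1 and at -1.09 without female Slfn3KO 4. Zfp36 had -0.53 (SE 0.244), and Egr1 and Atf3 had -0.13 and 0.03. The members' median was -0.66, against -0.0098 over all genes. Without female WT 3 and 4, 4 members were lower at an unadjusted p below 0.05, where 11.8% of all genes were, namely Junb, Dusp1, Ier2 and Fosb, and the members' median was -0.74. The groups then did not overlap for 6 members, Fos, Fosb, Junb, Nr4a1, Ier2 and Dusp1, as for 16.8% of all genes. Junb was at -1.01 in that fit (edgeR adjusted p = 0.157) and Fosb at -2.06 (edgeR adjusted p = 0.185). The enterocyte marker sums of female Slfn3KO 1 and 2, given above, were the lowest of all libraries. The crypt marker sums, 106, 321, 398 and 223 CPM in female WT and 538, 567, 416 and 472 CPM in female Slfn3KO mice, did not overlap between the groups. Smooth muscle marker sums were 13.9, 26.0, 19.1 and 21.6 CPM in female WT and 49.8, 94.8, 19.8 and 15.4 CPM in female Slfn3KO mice. They were thus highest in female Slfn3KO 1 and 2 among females. The part of any of these markers in the female differences was not tested. Comparisons above share libraries with one another, the pooled one holding those of both sexes.

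Whether the genotype difference itself differed between the labelled sexes was tested as an interaction, female minus male. Lower in females at an unadjusted p below 0.05 were 4 members, Junb, Ier2, Zfp36 and Dusp1, beside 5.26% of all genes. The edgeR test passed 0 of 14822 genes (0%), with 1639 at an unadjusted p below 0.05, and DESeq2 passed 24, with no member in either. The Junb difference between the sexes was -1.01 on the log2 scale (SE 0.305, edgeR adjusted p = 0.441, unadjusted p = 0.00495), from -0.97 in females and 0.04 in males. For Ier2 it was -0.34 (SE 0.111, edgeR adjusted p = 0.441), for Zfp36 -0.72 (SE 0.278, edgeR adjusted p = 0.441) and for Dusp1 -0.64 (SE 0.292, edgeR adjusted p = 0.446). Only 2 members had that p without female WT 1 (beside 494 of 15091 genes), without male Slfn3KO 2 (638 of 15070) or on total counts (571 of 14822). Without female WT 1, Zfp36 was at -0.55 (edgeR unadjusted p = 0.0537) and Dusp1 at -0.54 (edgeR unadjusted p = 0.0863). On total counts Ier2 was at -0.22 (edgeR unadjusted p = 0.152), and at -0.34 relative to the median of all genes. Without the WT libraries 3 and 4, 3 members, Junb, Ier2 and Dusp1, were at an unadjusted p below 0.05 in that direction, beside 12.5% of all genes. That fit passed 359 genes, none of them a member, and gave Junb -0.99 (edgeR adjusted p = 0.157) and Zfp36 -0.83 (edgeR unadjusted p = 0.051, adjusted p = 0.188). The members' median was -0.66 with all libraries, against 0.0063 over all genes, and -0.98 without these 4.

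The members were then compared with one another over the 16 mice, as 45 pairs on log2 CPM, with two-sided permutation tests and Benjamini-Hochberg adjustment over the 45. Of these, 44 had a positive r, the median r was 0.425, and 9 pairs had an adjusted p below 0.05. Without female Slfn3KO 2 alone, 35 pairs had a positive r and the median r was 0.231. Fos and Fosb varied together most closely, with r = 0.960 (permutation p = 1e-05, the smallest that 100000 resamples can give, adjusted p = 0.00045) and Spearman's rho = 0.965 (permutation p = 1e-05, adjusted p = 0.00045). Their r was 0.967 within the 4 groups, 0.957 without the WT libraries 3 and 4, and 0.909 without female Slfn3KO 2 and female WT 4, the libraries farthest from the median. Junb and Zfp36 followed with r = 0.890 (permutation p = 3e-05, adjusted p = 0.000675) and rho = 0.8294 (permutation p = 0.00011, adjusted p = 0.00247). That r was 0.875 within groups (adjusted permutation p = 0.0308), 0.916 without the WT libraries 3 and 4, and 0.745 without female Slfn3KO 1 and 2 (adjusted permutation p = 0.0321). An adjusted p below 0.05 was kept by these 2 pairs whichever single library was left out.

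**Figure D3:**
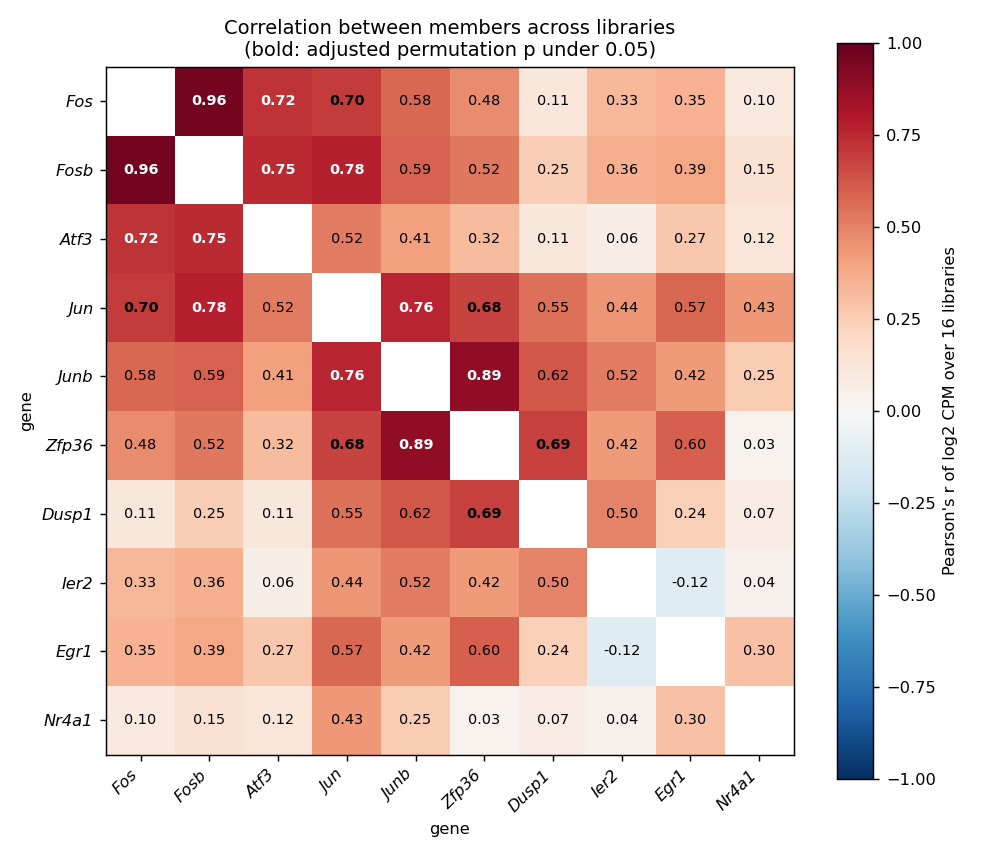
Pearson's r between each pair of the 10 genes on log2 CPM over 16 libraries, from blue (-1) over white (0) to red (1), with bold numbers where the adjusted permutation p is below 0.05. The highest r is that of Fos with Fosb, 0.960, and Egr1, Ier2 and Nr4a1 have no bold value.

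The other 7 pairs lay among Fos, Fosb, Jun, Junb, Atf3, Dusp1 and Zfp36. Fosb and Jun had r = 0.779 (permutation p = 0.00052, adjusted p = 0.0078) and rho = 0.559 (permutation p = 0.0262, adjusted p = 0.118). Their r was 0.754 within groups (adjusted permutation p = 0.0308) and 0.775 without female Slfn3KO 2 and female WT 4. Jun and Junb had r = 0.758 (permutation p = 0.00141, adjusted p = 0.0127) and rho = 0.409 (permutation p = 0.117, adjusted p = 0.279), with an r of 0.625 within groups (adjusted permutation p = 0.278) and 0.442 without female Slfn3KO 2 and female WT 1. For Fosb and Atf3, r = 0.749 (permutation p = 0.00101, adjusted p = 0.0114) and rho = 0.677 (permutation p = 0.00502, adjusted p = 0.054) were found, and for Fos and Atf3, r = 0.722 (permutation p = 0.00244, adjusted p = 0.0183) and rho = 0.600 (permutation p = 0.0155, adjusted p = 0.109). Leaving out female Slfn3KO 2 and female WT 4 brought these 2 values of r to 0.464 and 0.365, while within groups they were 0.791 and 0.816 (adjusted permutation p = 0.0308 and 0.0365). Fos and Jun had r = 0.699 (permutation p = 0.00388, adjusted p = 0.0218) and rho = 0.488 (permutation p = 0.0575, adjusted p = 0.199), with 0.695 within groups (adjusted permutation p = 0.0945) and 0.570 without the same libraries.

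The feedback genes Dusp1 and Zfp36 had r = 0.685 (permutation p = 0.00376, adjusted p = 0.0218) and rho = 0.665 (permutation p = 0.006, adjusted p = 0.054), with an r of 0.732 within groups (adjusted permutation p = 0.0308) and 0.546 without female WT 1 and 4. Jun and Zfp36 had r = 0.680 (permutation p = 0.00522, adjusted p = 0.0261) and rho = 0.335 (permutation p = 0.203, adjusted p = 0.38), with 0.519 within groups (adjusted permutation p = 0.348) and 0.353 without female Slfn3KO 2 and female WT 1. None of these 7 pairs had an adjusted p below 0.05 when female Slfn3KO 2 alone was left out. Their r was then 0.614 for Fosb with Jun, 0.542 for Jun with Junb, 0.566 for Fosb with Atf3, 0.489 for Fos with Atf3 and 0.437 for Fos with Jun. For Dusp1 with Zfp36 it was 0.685 and for Jun with Zfp36 0.543. Without the 2 libraries farthest from the median, Fosb with Jun was the only one of the 7 below 0.05 (adjusted permutation p = 0.0304). With female Slfn3KO 1 left out, Jun with Junb, Jun with Zfp36 and Dusp1 with Zfp36 lost it. Without female WT 1, Jun with Zfp36 and Dusp1 with Zfp36 did, and without male Slfn3KO 4, Fos with Jun did. With the WT libraries 3 and 4 left out, 14 pairs had an adjusted p below 0.05, among them all 9, and the r of these 7 ran from 0.704 for Fos with Atf3 to 0.878 for Fosb with Jun. Egr1, Ier2 and Nr4a1 took part in none of the 9 pairs, but Egr1 with Zfp36 (r = 0.694, adjusted permutation p = 0.0409) and Fosb with Ier2 (r = 0.671, adjusted permutation p = 0.0492) were among those 14. By rank, Jun with Nr4a1 had rho = 0.735 (permutation p = 0.00181, adjusted p = 0.0271), the only pair outside the 9 below 0.05 on that measure, with r = 0.431 (permutation p = 0.0981, adjusted p = 0.19).

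As a single description per mouse, the mean z score of the 10 genes was highest in female WT 1 (1.14) and male Slfn3KO 4 (0.663). It was lowest in female Slfn3KO 1 (-0.909) and female Slfn3KO 2 (-1.89), and in the latter all 10 members lay below their own mean. Female WT 1 also had the lowest TMM scaling factor, 0.811, and female Slfn3KO 2 the highest, 1.18. On total counts without these factors, 4 pairs had an adjusted p below 0.05, 35 had a positive r and the median r was 0.242. Among 12638 genes with a mean of at least 1 CPM, those most correlated with this mean z score over the 16 libraries were Max (0.957), Cdhr2 (0.952), Btg2 (0.948), Slc25a22 (0.946), Nuak2 (0.945), Sowahb (0.944), 4930539E08Rik (0.942), Mxd1 (0.939), Myo1e (0.936) and Bahd1 (0.936). These r are the highest of 12638, and they were not computed without female Slfn3KO 2, the library with the lowest score.

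Cell type markers moved with several members. These 80 relations, of 10 members with summed markers of 8 cell types, were computed after the values had been seen, and 14 had a Benjamini-Hochberg adjusted permutation p below 0.05. Nr4a1 followed the B cell and follicle markers, with r = 0.923 (permutation p = 1e-05, adjusted p = 0.0008) and rho = 0.947 (permutation p = 1e-05, adjusted p = 0.0008). The r was 0.913 within groups, 0.926 without the WT libraries 3 and 4 and 0.942 without female WT 4 and male WT 3. All 10 of these markers were detected, with Cd37 the most abundant and none at 0 in every library. Their sum was 30.1, 157, 521 and 679 CPM in female WT and 37.0, 13.5, 70.7 and 18.8 CPM in female Slfn3KO mice. In males it was 12.4, 10.2, 1063 and 219.8 CPM in WT and 5.80, 13.1, 103 and 163 CPM in Slfn3KO mice. The 4 highest sums were thus those of the WT libraries 3 and 4, and in 3 of these Nr4a1 was at its highest too. The part of these markers in the Nr4a1 difference between genotypes was not tested.

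Nr4a1 also followed the 8 macrophage markers, led by Lyz2, with r = 0.889 (permutation p = 3e-05, adjusted p = 0.0012) and rho = 0.779 (permutation p = 0.00061, adjusted p = 0.0163). That r was 0.882 within groups, 0.681 without the WT libraries 3 and 4 (adjusted permutation p = 0.0568) and 0.783 without female WT 3 and male WT 3. The macrophage sum was 66.0, 124, 206 and 190.3 CPM in female WT and 112, 115, 73.0 and 74.6 CPM in female Slfn3KO mice. In males it was 83.2, 62.9, 290.3 and 89.5 CPM in WT and 52.0, 75.5, 146 and 113 CPM in Slfn3KO mice, none of the 8 markers being at 0 in every library. It was highest in male WT 3 and female WT 3 and 4, as Nr4a1 was.

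The summed enterocyte markers had an r with an adjusted permutation p below 0.05 with 5 members, Fos, Fosb, Jun, Junb and Zfp36. The markers in this sum did not all move together. Fabp2 was at 21970 CPM in female WT 1 and at 1609 CPM in female Slfn3KO 2, the libraries with the highest and the lowest sum. Fabp6 was at 1847 and 8754 CPM and Slc10a2 at 51.7 and 143 CPM in the same libraries, in the opposite order. Junb had r = 0.800 (permutation p = 0.00035, adjusted p = 0.0056) and rho = 0.700 (permutation p = 0.00336, adjusted p = 0.0306) with their sum, and Zfp36 had r = 0.798 (permutation p = 0.00024, adjusted p = 0.0048) and rho = 0.679 (permutation p = 0.00489, adjusted p = 0.0353). For Fos, r = 0.739 (permutation p = 0.00102, adjusted p = 0.0117) and rho = 0.727 (permutation p = 0.00217, adjusted p = 0.0306) were found, and for Fosb, r = 0.746 (permutation p = 0.00102, adjusted p = 0.0117) and rho = 0.732 (permutation p = 0.00196, adjusted p = 0.0306). Jun had r = 0.681 (permutation p = 0.00341, adjusted p = 0.0301) and rho = 0.444 (permutation p = 0.0862, adjusted p = 0.192). Without female Slfn3KO 1 and 2, the libraries farthest from the median, r was 0.513 for Junb, 0.555 for Zfp36, 0.615 for Fos, 0.604 for Fosb and 0.320 for Jun. None of these 5 relations then had an adjusted permutation p below 0.05 over the remaining 14 libraries. Within groups r was 0.647 for Junb, 0.716 for Zfp36, 0.648 for Fos, 0.664 for Fosb and 0.545 for Jun, with adjusted permutation p from 0.0757 to 0.155. Without the WT libraries 3 and 4, r was 0.971 for Junb, 0.907 for Zfp36, 0.791 for Fos, 0.837 for Fosb and 0.788 for Jun, with adjusted permutation p from 0.0008 to 0.0169.

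**Figure D4:**
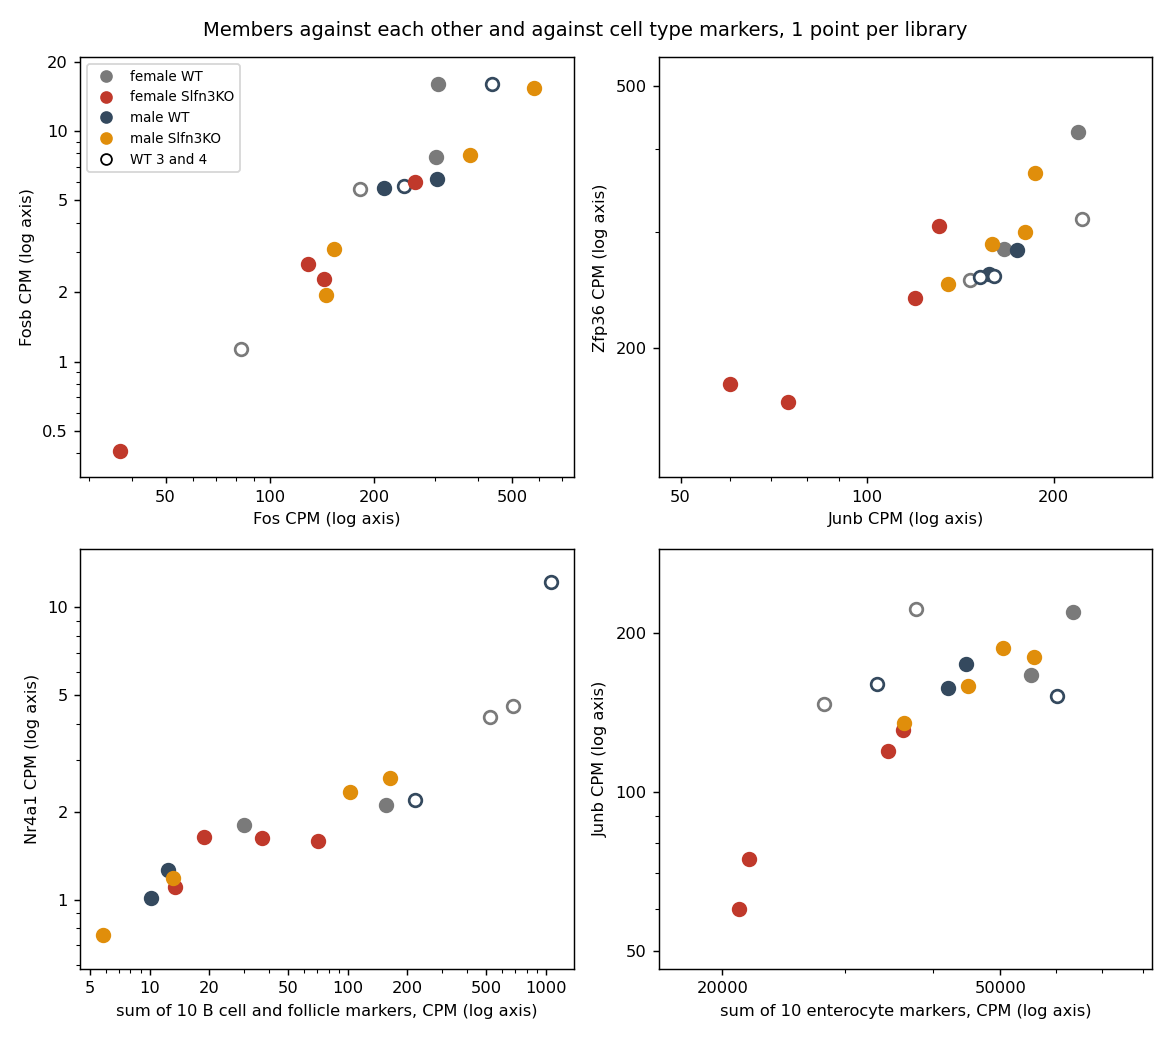
Fosb against Fos, Zfp36 against Junb, Nr4a1 against the summed B cell and follicle markers and Junb against the summed enterocyte markers, all in CPM on log axes, with 1 circle per library coloured by group and open circles for the WT libraries 3 and 4. Nr4a1 reaches 12.2 CPM in male WT 3, where the B cell markers sum to 1063 CPM.

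With markers of crypts, fibroblasts and endothelium, every r with an adjusted permutation p below 0.05 was negative. Nr4a1 differed from the other members in having a positive r with fibroblast (0.371, permutation p = 0.157, adjusted p = 0.307) and endothelial markers (0.594, permutation p = 0.0116, adjusted p = 0.0574). Without the WT libraries 3 and 4 these values of Nr4a1 were 0.145 and 0.208 (adjusted permutation p = 0.702 and 0.598). Crypt markers, led by Olfm4, had a negative r with Jun (-0.717), Dusp1 (-0.686), Zfp36 (-0.685) and Junb (-0.664), with adjusted permutation p of 0.0254, 0.0301, 0.0301 and 0.0463. Their rho was -0.697, -0.641, -0.700 and -0.779, with adjusted permutation p of 0.0306, 0.0464, 0.0306 and 0.0163. Without female WT 1 and male WT 4, r was -0.572 for Jun, -0.500 for Dusp1, -0.741 for Zfp36 and -0.793 for Junb, and the relations of Jun and Dusp1 no longer had an adjusted permutation p below 0.05. Without the WT libraries 3 and 4 it was those of Jun (-0.710) and Junb (-0.712) that no longer did (adjusted permutation p = 0.0568 for both), while Dusp1 had -0.815 (adjusted permutation p = 0.0285) and Zfp36 -0.823 (adjusted permutation p = 0.00267). Within groups these 4 values were -0.581, -0.643, -0.558 and -0.429, none with an adjusted p below 0.05. The crypt sum was 106, 321, 398 and 223 CPM in female WT, 538, 567, 416 and 472 CPM in female Slfn3KO, 413, 454, 272 and 139.7 CPM in male WT and 313, 273, 499 and 263 CPM in male Slfn3KO mice. All 5 crypt markers were detected.

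Fibroblast markers, led by Col3a1, had r = -0.777 (permutation p = 0.00024, adjusted p = 0.0048) and rho = -0.718 (permutation p = 0.00233, adjusted p = 0.0306) with Zfp36, which held within groups (r = -0.788, adjusted permutation p = 0.0068), without the WT libraries 3 and 4 (-0.837) and without female WT 1 and male Slfn3KO 3 (-0.755). With Junb they had r = -0.635 (permutation p = 0.00646, adjusted p = 0.0431) and rho = -0.591 (permutation p = 0.0178, adjusted p = 0.084), and -0.634 without those libraries (adjusted permutation p = 0.0999). Within groups the Junb value was -0.662, and without the WT libraries 3 and 4 it was -0.803 (adjusted permutation p = 0.0115). Endothelial markers, led by Pecam1, had r = -0.621 (permutation p = 0.00855, adjusted p = 0.0489) and rho = -0.644 (permutation p = 0.00837, adjusted p = 0.0464) with Zfp36, -0.714 within groups, -0.815 without the WT libraries 3 and 4 (adjusted permutation p = 0.0101), and -0.559 without female WT 1 and male WT 3, where the adjusted permutation p was 0.179. The fibroblast sum was 9.44, 33.1, 36.0 and 35.6 CPM in female WT and 63.1, 64.1, 21.5 and 32.6 CPM in female Slfn3KO mice, and 19.4, 15.1, 57.7 and 34.9 CPM in male WT and 22.1, 16.0, 77.3 and 15.7 CPM in male Slfn3KO mice. For endothelium the sums were 3.97, 14.1, 23.2 and 21.5 CPM in female WT and 15.3, 27.1, 8.00 and 11.6 CPM in female Slfn3KO mice, and 9.75, 5.40, 30.7 and 8.40 CPM in male WT and 6.20, 5.55, 21.9 and 6.65 CPM in male Slfn3KO mice. All 6 markers of each type were detected. What part these cell types have in the members' differences was not tested.

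T cell markers, led by Cd8a, and smooth muscle markers, led by Smtn, had no r with an adjusted permutation p below 0.05 with any member over the 16 libraries, though other measures gave some. By rank, T cell markers had rho = 0.691 with Jun (permutation p = 0.00383, adjusted p = 0.0306) and rho = 0.674 with Egr1 (permutation p = 0.0053, adjusted p = 0.0353), where r was 0.606 and 0.466 (permutation p = 0.0119 and 0.0701, adjusted p = 0.0574 and 0.175). Without the 2 libraries farthest from the median of that sum, r was 0.801 with Zfp36 and 0.733 with Junb (adjusted permutation p = 0.0164 and 0.0369). Smooth muscle markers had r = -0.710 with Junb within groups (adjusted permutation p = 0.0254). Without the WT libraries 3 and 4 their r was -0.773 with Junb, -0.764 with Fosb, -0.757 with Zfp36 and -0.738 with Fos, with adjusted permutation p from 0.0241 to 0.0377. The T cell sum ran from 47.1 to 209.6 CPM, and that of smooth muscle from 13.9 to 125 CPM.

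The rest of the pathway was read from 6 lists of 74 genes in the pooled comparison, and 0 of the genes tested in any list passed the edgeR threshold. Counts are read beside all 14822 genes tested, of which 7.10% were lower and 718 genes higher at an unadjusted p below 0.05, with a median of -0.0037. Of 10 AP-1 partners and relatives, such as Fosl2 and Jund, 1 was lower at an unadjusted p below 0.05 and the median log2 fold change was -0.16. Of 10 other immediate early transcription factors, such as Egr2, Egr3 and Klf4, 4 were lower, with a median of -0.41. Of 15 tested other immediate early products, such as Ier5 and Btg2, 4 were lower, with a median of -0.30. Feedback genes of MAP kinase signalling and mRNA decay had 3 lower and 1 higher of 14, with a median of -0.05. The upstream kinases and serum response factors had 2 lower and 1 higher of 14, with a median of -0.08. Heat shock genes had 0 of 9 tested at an unadjusted p below 0.05, with a median of -0.0037. In the fit without the WT libraries 3 and 4, where 3.10% of 15093 genes were lower and 408 genes higher at an unadjusted p below 0.05, the partners had 0 at that p with a median of -0.18, and the other transcription factors 0 with a median of -0.26. The products then had 2 lower of 16 (median -0.24), and the feedback and the upstream genes 1 lower and 1 higher each (medians -0.07 and -0.06). Heat shock genes had 0 of 9, with a median of 0.12. By labelled sex and with all libraries, the median was -0.02 in males and -0.38 in females for the partners, -0.30 and -0.66 for the other transcription factors, and -0.09 and -0.44 for the products. In the same order it was 0.07 and -0.28 for feedback, 0.03 and -0.17 for upstream and -0.16 and 0.30 for heat shock genes. At an unadjusted p below 0.05, males had 2 feedback genes higher and 1 heat shock gene lower, and no other gene of the lists. Females had 2 partners, 4 other transcription factors, 5 products, 4 feedback genes and 3 upstream genes lower, and 1 upstream gene and 2 heat shock genes higher. Over all genes 263 were higher and 279 lower of 14124 in males, and 1206 higher and 1204 lower of 14064 in females. For the lists, the difference between the sexes was not tested, and the sexes were not analysed without the WT libraries 3 and 4.

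The lowest pooled log2 fold changes in these lists were those of Dusp2, Egr3 and Egr2. Dusp2, a MAP kinase phosphatase of lymphoid cells, was at 1.51, 4.11, 10.03 and 10.9 CPM in female WT and at 1.03, 0.777, 1.98 and 0.923 CPM in female Slfn3KO mice. In males it was at 1.34, 0.807, 17.4 and 3.78 CPM in WT and at 0.180, 0.674, 2.19 and 3.09 CPM in Slfn3KO mice. As for Nr4a1, the high values were those of male WT 3 and female WT 3 and 4. Its log2 fold change was -2.21 (SE 0.660, edgeR adjusted p = 0.327) and -0.46 without the WT libraries 3 and 4. For Egr3, a relative of Egr1, it was -1.99 (SE 0.648, edgeR adjusted p = 0.327) and -0.25 without them. For Egr2 the values were -1.49 (SE 0.438, edgeR adjusted p = 0.327) and -0.47. Egr2 was at 1.56, 0.720, 2.36 and 3.46 CPM in female WT, 0.701, 0.807, 4.49 and 1.16 CPM in male WT, 0.602, 0.409, 0.855 and 0.722 CPM in female Slfn3KO and 0.252, 0.516, 1.10 and 0.950 CPM in male Slfn3KO mice. In male WT 3, Egr3 reached 3.16 CPM, and this library was the highest of the 16 for both genes.

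On the higher side Spry1, an inhibitor of Ras signalling, was at 6.93, 11.98, 8.04 and 8.54 CPM in female WT and at 5.25, 9.24, 8.16 and 6.62 CPM in female Slfn3KO mice. In males Spry1 was at 4.54, 4.70, 6.12 and 6.61 CPM in WT and at 13.99, 10.9, 10.98 and 9.03 CPM in Slfn3KO mice, the highest being male Slfn3KO 1. The highest pooled log2 fold changes were those of Spry1 with 0.38 (SE 0.227, edgeR adjusted p = 0.532), Spred1, another inhibitor of that pathway, with 0.35 (SE 0.153, edgeR adjusted p = 0.379) and Mapk9, a kinase of the JNK family, with 0.22 (SE 0.0759, edgeR adjusted p = 0.327). Spry1 stood at 1.04 in males and -0.28 in females, so its pooled value joins opposite directions, while Spred1 (0.35 and 0.35) and Mapk9 (0.09 and 0.35) were higher in both. In the fit without those 4 WT mice, Spry1, Spred1 and Mapk9 stood at 0.38, 0.57 and 0.20.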

How the data were processed

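RNA of 16 mice was sequenced in 2 lanes per library. Per the study's methods and the file headers, the authors trimmed reads with cutadapt, aligned them to mm10 with STAR and deposited raw counts per gene, made by reverse-stranded counting. The methods name HTSeq as counter, whereas the header and the submitters' processing notes name featureCounts 1.4.6, with DESeq2 1.22.2. Of 46078 gene IDs, 45143 had a symbol.

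From these counts, edgeR 4.0.16 in R 4.3.3 fitted robust quasi-likelihood models with TMM factors, after filterByExpr by group, with Benjamini-Hochberg adjustment over all genes tested and a threshold of adjusted p below 0.05 and at least 1.5-fold. log2 CPM used a prior count of 2. Total counts of 20823279 to 30813117 set a floor of 3 counts at 0.100 to 0.151 CPM. Same-numbered WT and Slfn3KO libraries were correlated over all genes tested, as deviations of log2 CPM from the group means. This r was above 0.1 in all 4 male pairs and in 1 of 4 female pairs. Since most Slfn3KO libraries had a higher r with another number, these r do not establish a pairing. The block is given only as an alternative, beside 3 male values and the pooled values of Dusp1 and Junb. The labels do not say what mice with 1 number share. Each library is 1 mouse by the labels, and groups follow the labels only. Correlations used 100000 permutations in Python 3.11.15 with numpy 2.4.6, and were tested on simulated data, as were the fits. Alternatives were DESeq2 1.42.0, edgeR RLE factors, centring on the median gene, no filter, at least 10 counts in every library, a replicate block, no covariate, all 4 groups in one fit, leaving out each library, and leaving out the WT libraries 3 and 4. Total counts without scaling factors, leave-one-out for the correlations and the 80 marker relations were added after seeing the data.

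Named were all 10 members, Slfn3, and of 6 wider lists the 3 genes with the lowest and the 3 with the highest pooled values by a fixed rule. Nearest genes are the 10 most correlated with the mean z score among genes with a mean of at least 1 CPM. Members and lists were chosen with earlier results of these data known.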

Additional observations from a re-analysis of the deposited data

Results flagged for a closer look

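In 5 of the 40 sets made by 10 genes and 4 groups, 1 library stood far from the other 3, with a gap above Dixon's 95% critical value, as a share of the group's range. Chance gives about 1 in 20 such sets. Fosb was at 16.04 CPM in male WT 4, against 5.65 to 6.18 CPM in the other male WT mice. Egr1 was at 42.01 CPM in male Slfn3KO 2, with the others of that group between 21.8 and 24.1 CPM. Zfp36 was at 281.6 CPM in male WT 2, while the other male WT libraries lay between 257 and 259 CPM. Nr4a1 stood apart in 2 groups. It was at 1.104 CPM in female Slfn3KO 2, against 1.59 to 1.65 CPM in the others, and at 12.21 CPM in male WT 3, against 1.02 to 2.20 CPM.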

How the results depend on the processing

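Against 0 genes and 0 members past the threshold with edgeR in each comparison, DESeq2 passed 55 genes in the pooled, 14 in the male, 506 in the female (1 member, Junb) and 24 in the interaction comparison. An unadjusted p below 0.05 with at least 1.5-fold was met by 984, 272, 1366 and 946 genes in the same order (1770, 542, 2410 and 1639 without the fold), among them 1 member pooled, 3 in females and 3 in the interaction. Without the WT libraries 3 and 4, the interaction passed 359 genes. The cause was not tested.

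Some log2 fold changes turned their sign. On total counts Ier2 was at 0.0165 pooled, but that scaling moved the median of all genes to 0.076 pooled, 0.136 in females and 0.127 in the interaction, and relative to the median Ier2 was at -0.06 either way. Without the WT libraries 3 and 4, Nr4a1 was at 0.0667 pooled, 0.59 in males and -0.98 in the interaction, male Fosb at 0.25, male Junb at -0.00198 and female Atf3 at -0.30.

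In males, but not in females, every pair of same-numbered WT and Slfn3KO libraries had an r above 0.1. This r was taken over all genes tested, on log2 CPM as deviations from each gene's group mean. It was -0.362, 0.143, -0.337 and -0.113 in females and 0.229, 0.317, 0.518 and 0.138 in males. Of 8 Slfn3KO libraries, 2 had their highest r with the WT library of their own number. With 4 WT libraries open to each, that is the share that numbers without meaning would give. A fit with the replicate number as a block passed 0 genes in all 4 comparisons (edgeR, 876, 447, 844 and 654 at an unadjusted p below 0.05 with at least 1.5-fold). It put Fos in males at -0.12, Atf3 in females at -0.265 and Nr4a1 in the interaction at -0.33. Male genes at an unadjusted p below 0.05 went from 542 to 936, with Atf3 among them at -0.71. Members at that p went from 3 to 1 pooled, without Dusp1 and Junb, where all genes went from 1770 to 1609. They stayed at 4 in females and in the interaction, where Jun took the place of Dusp1 and all genes went from 2410 to 1306 and from 1639 to 1107.

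Leaving out 1 library at a time, the log2 fold change of Egr1 ran from -0.0134 to 0.27 pooled and from -0.54 to 0.0642 in females. In males Fos ran from -0.39 to 0.31, Fosb from -0.95 to 0.2499, Jun from -0.19 to 0.25, Junb from -0.0287 to 0.12, Dusp1 from -0.17 to 0.0477 and Nr4a1 from -1.63 to 0.22. Female Atf3 ran from -0.55 to 0.35 and Nr4a1 in the interaction from -1.30 to 0.53. Pairs with an adjusted permutation p below 0.05 numbered 9 in the first count, 3 by Spearman, 6 within groups, 4 on total counts, 14 without the WT libraries 3 and 4, 3 without the 2 farthest libraries and 2 to 13 without 1 library.

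With 4 mice a group and a biological coefficient of variation of 0.760 for Fosb and 0.625 for Nr4a1, a difference that missed the threshold is not shown to be absent. Counts were 10 and 21 in the lowest libraries of these 2 genes.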
